A study of Caenorhabditis elegans with 6 samples.

Results

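Animals make fatty acids from acetyl-CoA. Acetyl-CoA carboxylase turns it into malonyl-CoA, fatty acid synthase joins malonyl units into palmitate, and an elongation cycle of condensation, reduction, dehydration and a further reduction lengthens the chain before or after desaturases add double bonds. In Caenorhabditis elegans much of this takes place in the intestine and the hypodermis, under the control of SBP-1, the worm homologue of the sterol regulatory element binding proteins, of nuclear hormone receptors such as NHR-49 and NHR-80, and of the Mediator subunit MDT-15, which binds SBP-1 and NHR-49 as a coactivator. The 8 genes described here are 4 of these regulators (sbp-1, mdt-15, nhr-49 and nhr-80) and 4 enzyme genes (pod-2, fasn-1, let-767 and art-1). They were taken by symbol from a deposited table of 20473 genes, in which each of the 8 symbols has 1 row.

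Whole N2 worms, the wild-type strain, were kept for 72 h at 20 °C with 100 µg/L or 0 µg/L of diquat (as the dibromide monohydrate), and their poly(A)-selected RNA was sequenced. Diquat is a herbicide that cycles between redox states inside cells and generates superoxide. Each group had 3 libraries, numbered 1 to 3. The labels do not say whether these are separate cultures, and p-values here cover the spread among the libraries alone, which may be technical. The sources used here do not give the stage of the worms when exposure began.

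The total count was 23390547 to 23569605 in the diquat libraries and 23589685 to 24593469 in the control libraries. Levels are given as CPM, the usual depth-scaled count with TMM factors applied to the library totals. Where genes are compared with each other, they are given as the deposited FPKM. FPKM is divided by length, and no TMM factors were applied to it here. Of 13252 genes with enough counts for edgeR's quasi-likelihood test, 0 were called higher and 121 lower with diquat at a Benjamini-Hochberg adjusted p under 0.05. These are 0% and 0.913% of the tested genes. With the library number added to the model as a block, 598 were called higher and 530 lower, which are 4.51% and 4.0%. The labels do not state that libraries of the same number were paired, so calls made only with the block depend on that assumption. Without single libraries 27 to 116 genes were lower, with 27 without diquat 1, 38 without control 2, 71 without control 1 and 116 without diquat 2. Without pair 1 the blocked fit called 15 higher and 181 lower. In whole worms, fewer cells of a type and less RNA per cell cannot be told apart. Summed over 10 intestinal markers the level was 5876 to 7579 CPM with diquat and 7300 to 8954 CPM in control. Over 10 hypodermal markers it was 1043 to 1311 CPM with diquat and 1361 to 1631 CPM in control, so that these ranges were apart. Of these hypodermal markers 0 passed the edgeR test. The sperm markers were apart as well, at 35.9 to 46.6 CPM with diquat and 93.3 to 109 CPM in control, with 9 of 14 tested markers past the edgeR test as lower. Body wall muscle markers were at 5217 to 7262 CPM with diquat and 6529 to 7734 CPM in control, neuronal markers at 516 to 625 CPM with diquat and 602 to 684 CPM in control. The sums of these 5 lists were lower in the diquat library of all 3 numbers. Oocyte and germline markers were lower in number 3 alone, at 9878 to 14023 CPM with diquat and 11494 to 13486 CPM in control. In every list but that of sperm, 0 markers passed the edgeR test in either direction. None of the marker genes was at 0 in all libraries, and their part in the results below was not tested.

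None of the lipid synthesis genes passed the test. Of the 8 genes, 7 had enough counts to be tested, and 0 of the 7 were called in either direction, with or without the replicate block. Their log2 fold changes lay between -0.04 (pod-2) and 0.15 (fasn-1), with a median of 0.05, against a median of 0.01 over all tested genes. The smallest edgeR adjusted p among the 7 was 0.820 and the largest 0.992, and 0 of the 7 had an unadjusted p under 0.05, against 1.54% of all tested genes higher and 4.68% lower. DESeq2 and limma-voom also called 0 of the 7, and they called 0.977% and 0.890% of all genes lower and 0.0125% and 0% higher. Every 95% interval of the 7 lay between a fold of 0.771 and a fold of 1.3. The standard errors were 0.10 to 0.16 on the log2 scale, against a median of 0.18 over all tested genes. The eighth gene, nhr-80, had almost no counts.

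**Figure D1:**
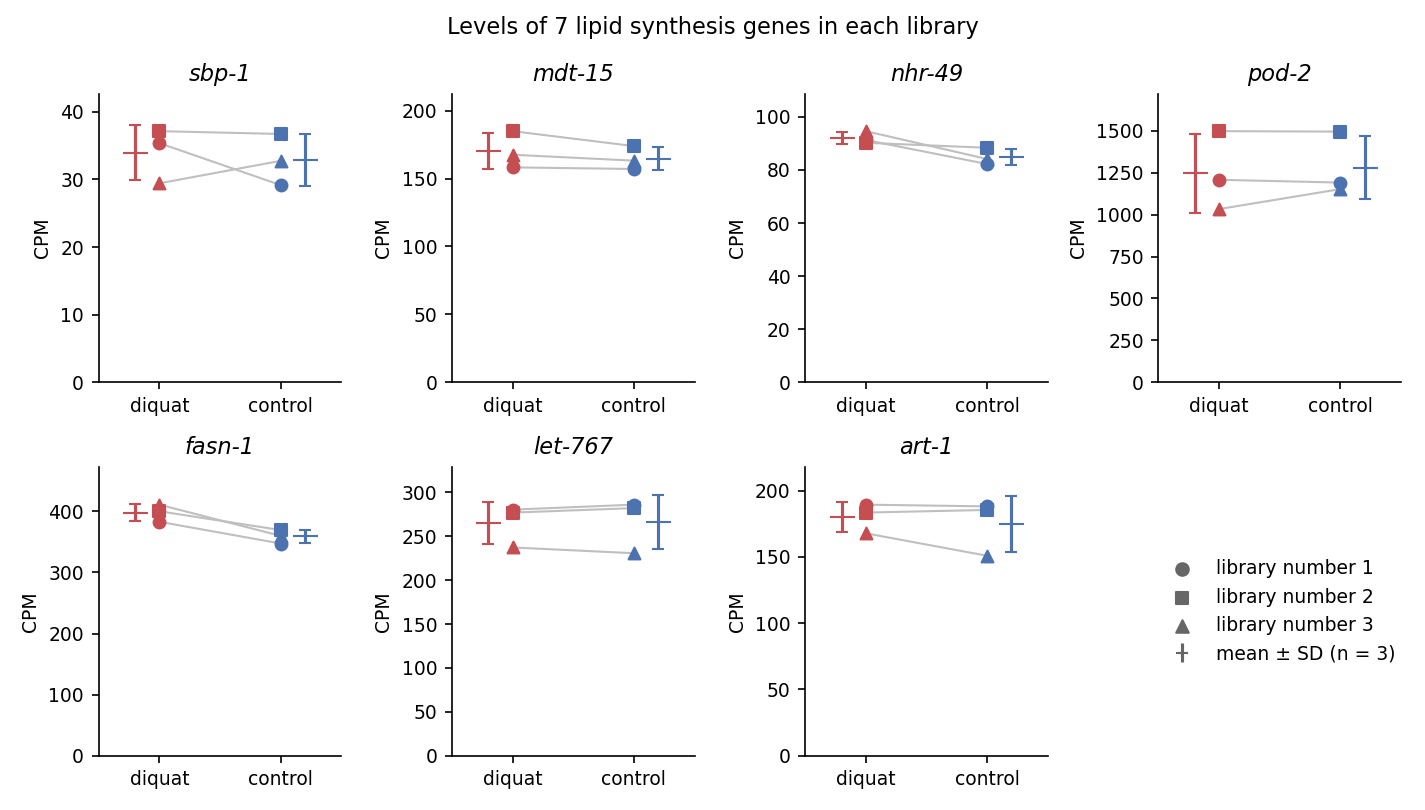
Level in CPM of each of the 7 tested genes in every library, with diquat left of control, a grey line joining libraries of the same number and bars giving the mean and SD (n = 3 in each group). The groups overlap for sbp-1, mdt-15, pod-2, let-767 and art-1, while the diquat points of nhr-49 and fasn-1 sit above all 3 control points (log2 fold changes 0.12 and 0.15).

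Among the regulators, sbp-1 encodes the transcription factor that turns on fatty acid synthesis genes once it has been cut free from a membrane. It lies on chromosome III at 11428367 to 11442566 (WBcel235, minus strand). It had 35.4, 37.2 and 29.4 CPM in the diquat libraries and 29.2, 36.7 and 32.8 CPM in the control libraries. The highest and the lowest of these values were diquat 2 and control 1, and the ranges overlapped along most of their length. The log2 fold change was 0.05 (standard error 0.14, 95% interval -0.25 to 0.35, edgeR adjusted p = 0.954). The same-numbered libraries differed by 0.28, 0.02 and -0.15 on the log2 scale for numbers 1, 2 and 3, so that the direction was not shared. Its exons share 48 bases with those of idpc-1 on the opposite strand, a gene with a mean of 1303 counts against 792 for sbp-1. The sources used here do not give the strand setting of the counting, so reads from those bases cannot be assigned.

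The mdt-15 transcript, for the Mediator subunit that links SBP-1 and NHR-49 to RNA polymerase II, lies on chromosome III at 5828557 to 5833751 (minus strand). It was at 158, 185 and 168 CPM with diquat and at 157, 174 and 163 CPM in control. In each group library 2 was highest and library 1 lowest. Each diquat library was slightly above the control library of its number, by 0.01, 0.09 and 0.04 on the log2 scale, and the groups overlapped. Its fold change was 0.05 on the log2 scale (95% interval -0.19 to 0.28, edgeR adjusted p = 0.938). The exons of mdt-15 share 95 bases with R12B2.8 on the opposite strand and 93 bases with R12B2.13 on the same strand. These genes had means of 11.3 and 3.17 counts, against 3977 for mdt-15.

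nhr-49 encodes a nuclear receptor related to vertebrate HNF4, known in the worm for controlling both fatty acid desaturation and the response to fasting. The gene lies on chromosome I at 9869651 to 9874680. It had 91.3, 90.3 and 94.6 CPM in the diquat libraries and 82.2, 88.4 and 84.1 CPM in the control libraries. All 3 diquat values were above all 3 control values, with spreads of 2.49% (diquat) and 3.70% (control) of the mean. The log2 fold change was 0.12 (standard error 0.10, 95% interval -0.10 to 0.34, edgeR adjusted p = 0.829; 0.335 with the block). The groups were also apart with RLE factors, another scaling of the library totals. The separation depends on the scale, since in FPKM, without such factors, the diquat values of 47.5, 42.9 and 53.1 overlapped the control values of 41.6, 41.1 and 45.1.

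nhr-80 encodes another HNF4-related receptor, known to act with NHR-49 on the desaturases fat-5, fat-6 and fat-7. It lies near the left end of chromosome III at 11985 to 14869 (minus strand). It had 0, 0 and 0 counts in the diquat libraries and 0, 2 and 1 counts in the control libraries. A library with no count allows a level of up to 0.116 to 0.137 CPM, by 3 counts of the TMM-scaled library total and for counting error only, so both groups were at this floor and no fold change can be given. The authors' deposited table lists a log2 fold change of -4.79 for nhr-80 (p = 0.446, FDR = 0.998), from a mean FPKM of 0.001 with diquat, the value that table has in place of 0, and 0.0277 in control. Of the annotated genes within 15000 bases of nhr-80 that are in the table, fbxa-6, npr-30, H10E21.1 and H10E21.4 had 0 counts in every library, and H10E21.5, the farthest to its right, had 24, 35 and 25 counts with diquat and 71, 39 and 41 in control. No annotated gene overlaps nhr-80. The table also holds 282 loci assembled from the reads, which it gives without positions, so whether reads of nhr-80 were counted in one of them was not tested.

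The first committed step of fatty acid synthesis is carried out by POD-2, acetyl-CoA carboxylase. Its gene lies on chromosome II at 1136785 to 1152705 (plus strand) and was the most abundant of the 8 by count, with 26657 to 32875 counts per library. It had 1208, 1499 and 1034 CPM with diquat and 1192, 1496 and 1153 CPM in control. The number 2 library was highest and the number 3 library lowest in each group, the groups overlapped, and the number 2 libraries differed by 0.00 on the log2 scale. Numbers 1 and 3 differed by 0.02 and -0.16. The log2 fold change was -0.04 (standard error 0.16, 95% interval -0.38 to 0.30, edgeR adjusted p = 0.968). With the replicate block the standard error was 0.05 and the interval -0.15 to 0.06 (edgeR adjusted p = 0.650). Its exons share 139 bases with those of W09B6.4 on the opposite strand, which had a mean of 354 counts.

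fasn-1 encodes fatty acid synthase, the large enzyme that builds palmitate from the malonyl-CoA that POD-2 supplies. It lies on chromosome I at 8975366 to 8986540 (minus strand). It had 383, 400 and 411 CPM in the diquat libraries and 347, 369 and 360 CPM in the control libraries, which is 398 ± 14.1 CPM with diquat and 359 ± 11 CPM in control (SD, n = 3 each). As for nhr-49, all diquat values were above all control values in CPM, by 0.14, 0.12 and 0.19 on the log2 scale for numbers 1, 2 and 3. The log2 fold change was 0.15 (standard error 0.11, 95% interval -0.08 to 0.38, edgeR adjusted p = 0.820). With the block the interval was 0.04 to 0.26 and the unadjusted p 0.0114, and the edgeR adjusted p was 0.0929. The groups were also apart with RLE factors. In FPKM the groups overlapped, at 46.3, 44.3 and 53.4 with diquat and 41.3, 40.3 and 44.5 in control.

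fasn-1 and nhr-49 were thus 2 of 7 tested members with all diquat libraries above all control libraries, a pattern held by 4.07% of all tested genes. No member had all diquat libraries below. Diquat was higher in each same-numbered pair for 3 of the 7 (fasn-1, nhr-49 and mdt-15), against 23.1% of all tested genes, and lower in each pair for 0 of the 7, against 19.5%. With 7 members these counts are a description only.

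**Figure D2:**
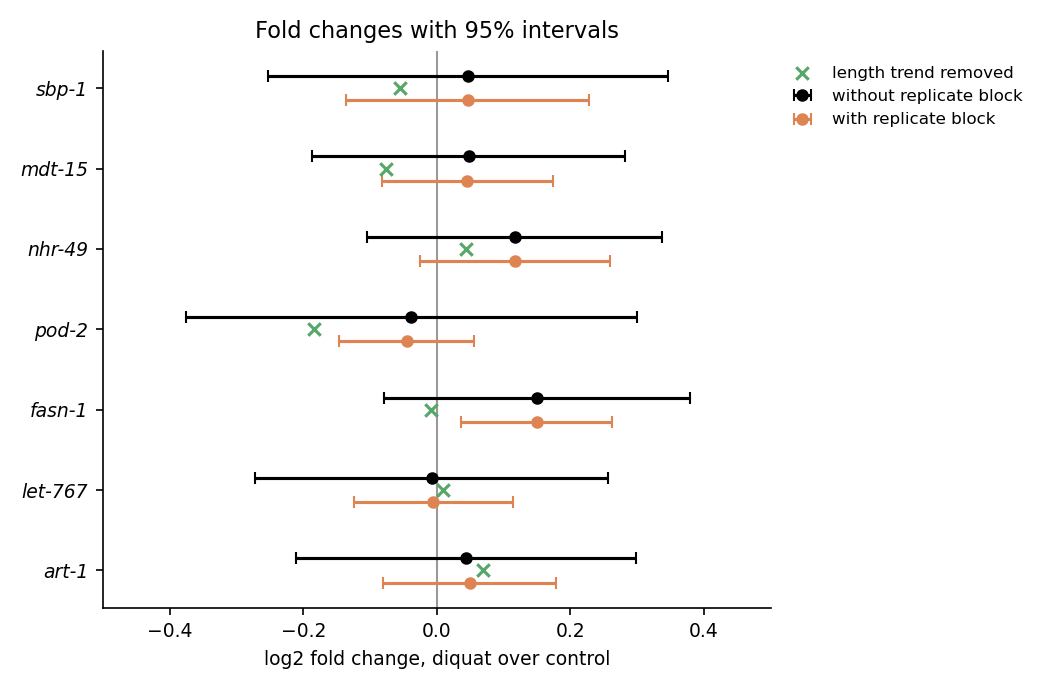
Log2 fold change of each tested gene, diquat over control, with 95% intervals from edgeR without (black) and with (orange) the replicate number as a block, and the value with each library's length trend removed (green crosses, no interval). All black intervals include 0. With the block the interval of fasn-1 lies above 0, at 0.04 to 0.26, and its adjusted p is 0.0929.

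Elongation of fatty acids beyond palmitate uses a condensing enzyme of the ELO family, a ketoreductase, a dehydratase and an enoyl reductase. let-767 encodes the ketoreductase, which in worms is also linked to steroid and branched-chain lipid metabolism, and lies on chromosome III at 6338508 to 6339969 (minus strand). It had 280, 277 and 237 CPM with diquat and 286, 282 and 231 CPM in control. Library 3 was lowest in both groups, and the groups covered nearly the same range. The log2 fold change was -0.01 (standard error 0.12, 95% interval -0.27 to 0.26, edgeR adjusted p = 0.992).

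art-1 encodes the enoyl reductase that closes the elongation cycle and lies on chromosome II at 6970745 to 6972235 (minus strand). It had 189, 183 and 168 CPM with diquat and 188, 185 and 151 CPM in control, again lowest in library 3 of each group. On the log2 scale the fold change was 0.04 (95% interval -0.21 to 0.30, edgeR adjusted p = 0.950). hpo-8, the dehydratase gene between them in the cycle, was at 199 ± 14.1 CPM with diquat and 201 ± 22.3 CPM in control (SD, n = 3 each; log2 fold change -0.02, edgeR adjusted p = 0.983).

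The balance between members was compared within each library, where scaling of the library cancels. Of 21 ratios of FPKM between the 7 tested members, 1 had groups apart, that of let-767 over art-1. It was 1.52, 1.55 and 1.47 in the diquat libraries and 1.58, 1.58 and 1.58 in the control libraries. The difference was small, and an exact two-sided permutation test of 3 against 3 cannot give a p below 0.1, the value here, before adjustment for 21 ratios. As counts, art-1 made up 40.3% of the art-1 and let-767 counts in diquat 1 (95% Wilson interval 39.4% to 41.2%), 39.8% in diquat 2 (38.9% to 40.8%) and 41.4% in diquat 3 (40.5% to 42.4%). In the controls it made up 39.7%, 39.7% and 39.5%, and the intervals of all 6 libraries overlapped. These intervals cover counting error only. The ratio of pod-2 over fasn-1, the enzymes of successive steps, was 4.04, 4.78 and 3.22 with diquat and 4.39, 5.18 and 4.09 in control. It was lower in the diquat library of each number, and the groups overlapped.

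Per length, the 8 genes fell into 4 levels. let-767 was highest, with a mean deposited FPKM of 243 ± 13 in diquat and 239 ± 21.6 in control libraries, followed by pod-2 at 190 ± 20.3 and 191 ± 15.5, and art-1 at 161 ± 9.68 and 151 ± 13.8 (SD, n = 3 in each group). Their values did not overlap in either group. mdt-15 (50.6 and 48.0 FPKM in diquat and control), fasn-1 (48.0 and 42.0) and nhr-49 (47.8 and 42.6) followed, and these 3 overlapped with each other in diquat libraries. In control libraries mdt-15 was above fasn-1 and nhr-49 without overlap. sbp-1 stood well below, at 10.1 ± 0.579 FPKM with diquat and 9.54 ± 0.806 FPKM in control, and nhr-80 was listed at 0 in 4 of the 6 libraries. Among the 13252 tested genes let-767 ranked 467 by mean FPKM, pod-2 596, art-1 728, mdt-15 2029, nhr-49 2177, fasn-1 2180 and sbp-1 6441. Counts per kilobase of annotated exon moved mdt-15 below nhr-49 and fasn-1 (40.3, 43.9 and 47.9 with diquat; 38.0, 39.3 and 41.9 in control) and left the others in place.

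**Figure D3:**
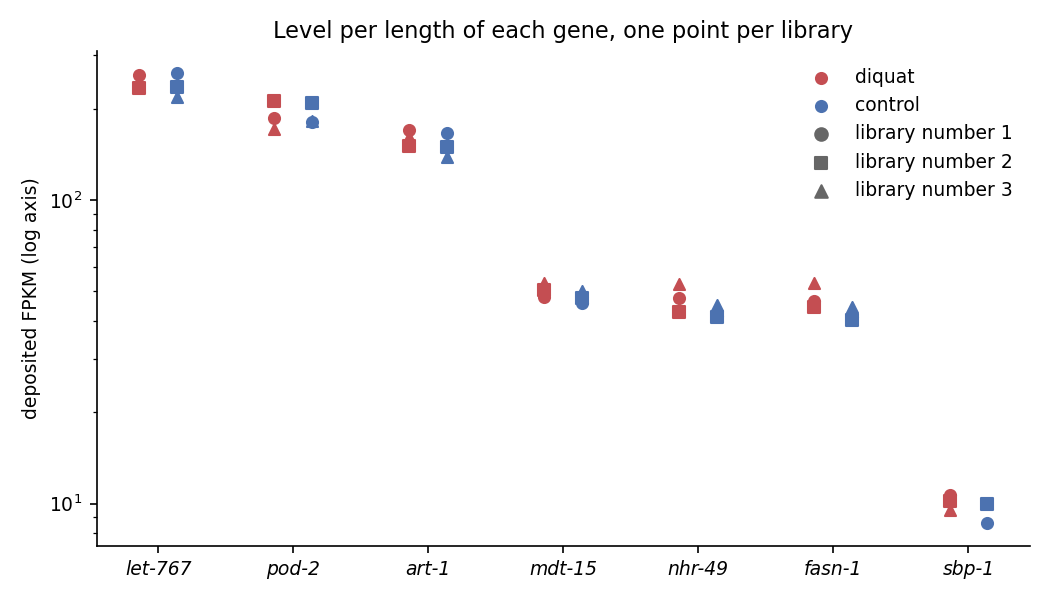
Deposited FPKM of the 7 tested genes on a log axis, 1 point per library, with diquat left of control and marker shape giving the library number. let-767, pod-2 and art-1 lie at 138 FPKM or above, mdt-15, nhr-49 and fasn-1 between 40.3 and 53.4, and sbp-1 between 8.61 and 10.6.

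The members differ widely in length, and fold changes in these libraries were higher for genes with longer exons in total, mainly in numbers 1 and 2. Across length deciles of the tested genes, the median ran between -0.12 (shortest) and 0.12 (longest) on the log2 scale. Within numbers 1, 2 and 3 it was -0.31, -0.07 and -0.01 in the shortest decile and 0.21, 0.12 and 0.02 in the longest, so that number 3 was nearly flat between these ends. sbp-1, mdt-15, pod-2 and fasn-1, with 3394 to 8451 exon bases, belong to the longest decile. The fold changes of sbp-1 and mdt-15 (both 0.05) and of pod-2 (-0.04) were below that median, and that of fasn-1 (0.15) was close to it. nhr-49, with 2133 bases, was at 0.12 against 0.08 in its decile, and let-767 and art-1, with 1118 and 1059 bases, at -0.01 and 0.04 against -0.02. With each library's length trend removed, fasn-1 was at -0.01, nhr-49 at 0.04, sbp-1 at -0.05, mdt-15 at -0.08 and pod-2 at -0.18, with edgeR adjusted p-values of 0.880 to 0.992. That fit called 0.00755% of the tested genes higher and 0.747% lower.

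With the length trend removed and the replicate block as well, pod-2 passed the test as lower (log2 fold change -0.19, edgeR adjusted p = 0.0176). That fit called 3.39% of the tested genes higher and 6.26% lower. Within numbers 1, 2 and 3 pod-2 differed by 0.02, 0.00 and -0.16, while the median gene of the longest decile differed by 0.21, 0.12 and 0.02. Without the length correction its blocked adjusted p was 0.650 by edgeR.

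**Figure D4:**
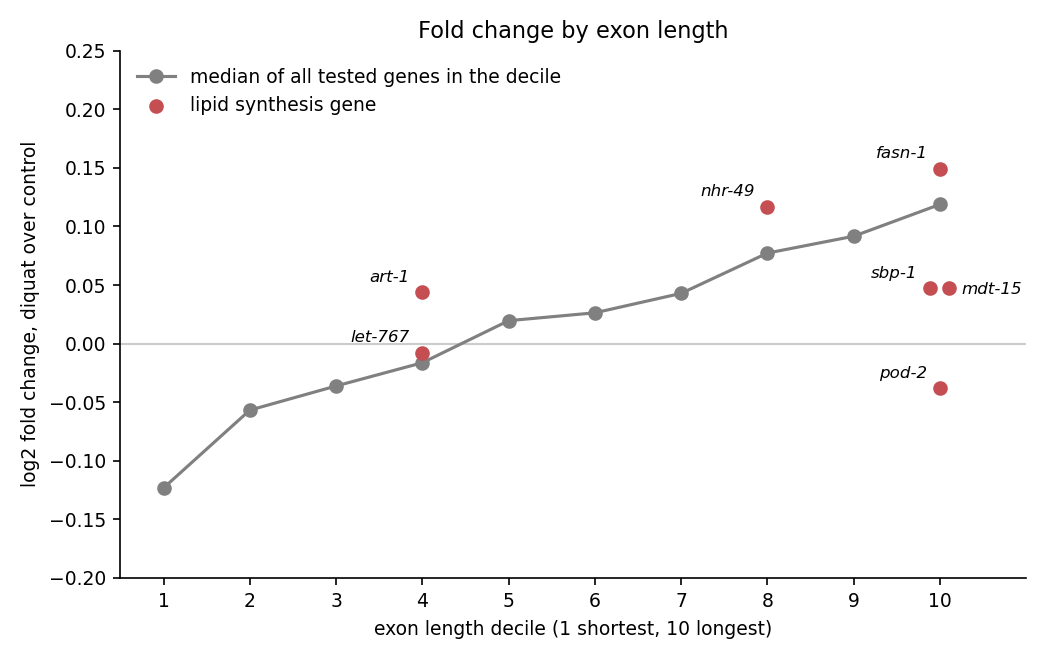
Log2 fold change of the 7 tested genes, diquat over control, by exon length decile (red), with the median of all tested genes in each decile (grey line). The grey line runs from -0.12 to 0.12. fasn-1 and nhr-49 lie above it, let-767 and art-1 on or above it, and sbp-1, mdt-15 and pod-2 below it.

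The members varied across the 6 libraries in a few shared patterns. Likeness was measured as the root mean square distance between log2 CPM values, each centred on the gene's own mean over the 6 libraries. The closest pair of members was nhr-49 and fasn-1, at 0.03, and the next let-767 and art-1, at 0.04. The most distant pair was pod-2 and fasn-1, at 0.22. Among 5452 genes with a mean of at least 100 counts, fasn-1 was the second nearest to nhr-49, after fos-1. The nearest to fasn-1 were sym-1 and ooc-3, to pod-2 wrt-5 and sec-61, to let-767 inos-1 and cif-1, and to art-1 idh-1, the cytosolic NADP-dependent isocitrate dehydrogenase, and gst-26. The nearest to sbp-1 were sec-24.2 and peb-1, and to mdt-15 sftb-2 and ppfr-2. These nearest distances lay between 0.01 and 0.05. Close matches over only 6 values among so many genes are a description.

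The wider pathway was read through 10 lists of 146 symbols, of which 135 are in the table and 129 were tested. Without the block 0 of the 129 were called in either direction. With the block 8 were called higher and 3 lower, which are 6.20% and 2.33% of the 129, against 4.51% and 4.0% of all tested genes. The median log2 fold change of the 129 was 0.05, against 0.01 over all tested genes. It was positive in 86 of them and negative in 43, against 52.7% positive among all tested genes. The median exon length of the 129 was 1546 bases, against 1416 over all tested genes, and fold changes here were higher for longer genes. How far length accounts for this lean was not tested. With the length trend removed and the block as well, 8 of the 129 were called higher and 8 lower. That fit called 3.39% of all tested genes higher and 6.26% lower. These counts are a description only.

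The desaturases introduce double bonds into acyl chains and include known targets of SBP-1, NHR-49, NHR-80 and MDT-15. Of 7 tested, 0 were called without the block, and all 7 had a positive log2 fold change, against 52.7% of all tested genes. Their median was 0.12, against 0.01. With the block 28.6% of the 7 were called higher, against 4.51% of all tested genes. With 7 genes these counts are a description only. fat-5, a palmitoyl-CoA desaturase, had 17.5, 19.8 and 14.3 CPM with diquat and 12.3, 12 and 10.8 CPM in control, with the groups apart. It had a log2 fold change of 0.56 without the block (edgeR adjusted p = 0.227) and rose in the blocked fit by 0.55 (0.00180). The stearoyl-CoA desaturase fat-6 rose in the blocked fit by 0.18 (edgeR adjusted p = 0.0265), at 705, 691 and 590 CPM with diquat and 653, 598 and 504 CPM in control, with overlapping groups. fat-7, its close copy, had 9.39, 12.1 and 10.04 CPM with diquat and 8.80, 9.66 and 6.06 CPM in control (blocked log2 fold change 0.38, edgeR adjusted p = 0.0943). The sources used here do not give how reads shared by fat-6 and fat-7 were counted, so the split between them is uncertain. The blocked call of fat-5 was lost without pair 1 (edgeR adjusted p = 0.0578) and that of fat-6 without pair 1 or pair 2 (0.300 and 0.282). In these fits to 4 libraries the log2 fold changes, 0.56 for fat-5 and 0.22 and 0.18 for fat-6, were about as large as with all pairs.

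NHR-49 is known to raise desaturases and genes of fatty acid oxidation. Of 13 genes in the table listed as its targets, not all of them in these classes, 12 were tested and 0 passed without the block. In the blocked fit fat-5 and fat-6 rose while acs-2 and icl-1 fell. These are 16.7% of the 12 in each direction, against 4.51% higher and 4.0% lower of all tested genes. acs-2, a mitochondrial acyl-CoA synthetase gene induced by fasting, had 13.9, 16.8 and 10.7 CPM with diquat and 20.6, 23.4 and 18.9 CPM in control. All diquat values were below all control values, as in 6.68% of the tested genes. Its log2 fold change was -0.61 (edgeR adjusted p = 0.233) and in the blocked fit it was -0.62, a fall past the threshold (edgeR adjusted p = 0.000174). It was the only 1 of the 11 blocked calls in these lists that held when each pair was left out in turn (edgeR adjusted p = 0.000116 to 0.0175). icl-1, the glyoxylate cycle gene, had 1027, 1254 and 999 CPM with diquat and 1214, 1493 and 1192 CPM in control, and fell in the blocked fit, by a log2 change of -0.25 (edgeR adjusted p = 0.000848; 0.183 without pair 1 and 0.0904 without pair 2, with log2 fold changes of -0.26 and -0.24). nhr-49 itself was at 0.12 in both fits. Of 13 partner and related receptors, including nhr-13 (log2 fold change 0.06) and nhr-66 (0.09), 0 passed either fit.

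scp-1, the SCAP homologue that is known in other animals to escort the SREBP precursor to where it is cut, had 30.6, 24.6 and 37.6 CPM with diquat and 19.4, 19.8 and 32.4 CPM in control. The groups overlapped, and each diquat library was above the control library of its number. Its log2 fold change was 0.37 without the block (edgeR adjusted p = 0.819), and it rose in the blocked fit by 0.39 (0.00929), a call lost without pair 1 (0.25, adjusted p = 0.307). For sbp-1 itself the blocked value was 0.05 (edgeR adjusted p = 0.815). The only blocked call among the 13 tested genes of the SBP-1 pathway and phosphatidylcholine list was scp-1. This is 7.69%, against 4.51% higher of all tested genes. The genes of phosphatidylcholine synthesis in the same list did not pass the blocked test, among them sams-1, the S-adenosylmethionine synthetase gene (log2 fold change 0.11, blocked adjusted p = 0.458), and pmt-1, a phosphoethanolamine methyltransferase gene (-0.02, 0.894).

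Of 27 Mediator subunits tested, 0 passed without the block, 23 had a positive log2 fold change, against 52.7% of all tested genes, and the median was 0.11. With the block cdk-8, mdt-27 and let-19 rose, by log2 changes of 0.31, 0.30 and 0.30 and with edgeR adjusted p-values of 0.0366, 0.0199 and 0.0236, and all were at overlapping levels in the 2 groups. These are 11.1% of the 27, against 4.51% of all tested genes, and with the length trend removed as well 1 Mediator gene was called higher and 1 lower. cdk-8 and let-19 belong to the kinase module of the complex, and both lost the blocked call once the length trend was removed. let-19, with 9278 exon bases, was then at 0.15 (edgeR adjusted p = 0.245) and cdk-8 at 0.25 (0.0628). The blocked call was lost without pair 1 or pair 2 for mdt-27 and let-19, and without any 1 of the 3 pairs for cdk-8 (edgeR adjusted p = 0.0545 to 0.388 for these). On the log2 scale the change was then 0.30 and 0.28 for mdt-27, 0.24 and 0.32 for let-19, and 0.35, 0.38 and 0.20 for cdk-8 without pairs 1, 2 and 3. mdt-15 had a blocked log2 fold change of 0.05 (0.725).

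Among the elongation genes 12 were tested, let-767, art-1 and hpo-8 included, and elo-5 rose in the blocked fit. This is 8.33% of the 12, against 4.51% of all tested genes. elo-5, needed for branched-chain fatty acids, had 44.1, 44.1 and 62.3 CPM with diquat and 38.7, 39.2 and 40.4 CPM in control, apart in CPM and with diquat 3 well above the rest. The blocked log2 fold change was 0.33 (edgeR adjusted p = 0.0157; 0.125 without pair 1 and 0.272 without pair 3; 0.686 without the block), and it was 0.40 without pair 1 and 0.18 without pair 3. Its relative elo-6 was at 76.0 ± 8.58 CPM with diquat and 69.7 ± 9.01 CPM in control (SD, n = 3 each; log2 fold change 0.13, edgeR adjusted p = 0.846). Of the short-chain dehydrogenases listed as relatives of let-767, 5 of 8 were tested and 0 passed either fit, and stdh-2, stdh-3 and stdh-4 had means of 3.17, 0.333 and 0.333 counts.

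The list for the supply of acetyl-CoA, malonyl-CoA and NADPH had 0 of 12 genes past the test with or without the block. Its median log2 fold change was 0.00. The list also holds mlcd-1, pcca-1, pccb-1 and mccc-1, so these values do not describe that supply alone. acly-1, an ATP citrate lyase gene, was at 254 ± 45.3 CPM with diquat and 266 ± 33.9 CPM in control (SD, n = 3 each; log2 fold change -0.07, edgeR adjusted p = 0.931). With the length trend removed and the replicate block as well, 2 of the 12 were called lower. These were acly-1 (log2 fold change -0.18, edgeR adjusted p = 0.0292) and men-1 (-0.23, 0.00309). That fit called 6.26% of all tested genes lower. Of 20 genes for triacylglycerol synthesis and lipid droplets 0 passed either fit, with a median of 0.04. dgat-2, a diacylglycerol acyltransferase gene, was at 8.43 ± 0.598 and 9.38 ± 2.57 CPM in diquat and control libraries (log2 fold change -0.16, edgeR adjusted p = 0.882). Of 13 sphingolipid genes sptl-3, a subunit gene of serine palmitoyltransferase, rose in the blocked fit (0.37 in log2 units, edgeR adjusted p = 0.00982). sms-3, a sphingomyelin synthase gene, fell (-0.33, edgeR adjusted p = 0.0296). Each is 7.69% of the 13, against 4.51% higher and 4.0% lower of all tested genes. The groups were apart in CPM for both, as in 4.07% (higher) and 6.68% (lower) of the tested genes. In FPKM they overlapped for sptl-3, at 13.3, 12.4 and 17.5 with diquat and 10.5, 9.45 and 12.4 in control. The calls of both were lost without any 1 of the 3 pairs (edgeR adjusted p = 0.0541 to 0.218), while the log2 fold changes, 0.34 to 0.39 for sptl-3 and -0.37 to -0.29 for sms-3, were about as large as with all pairs.

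**Figure D5:**
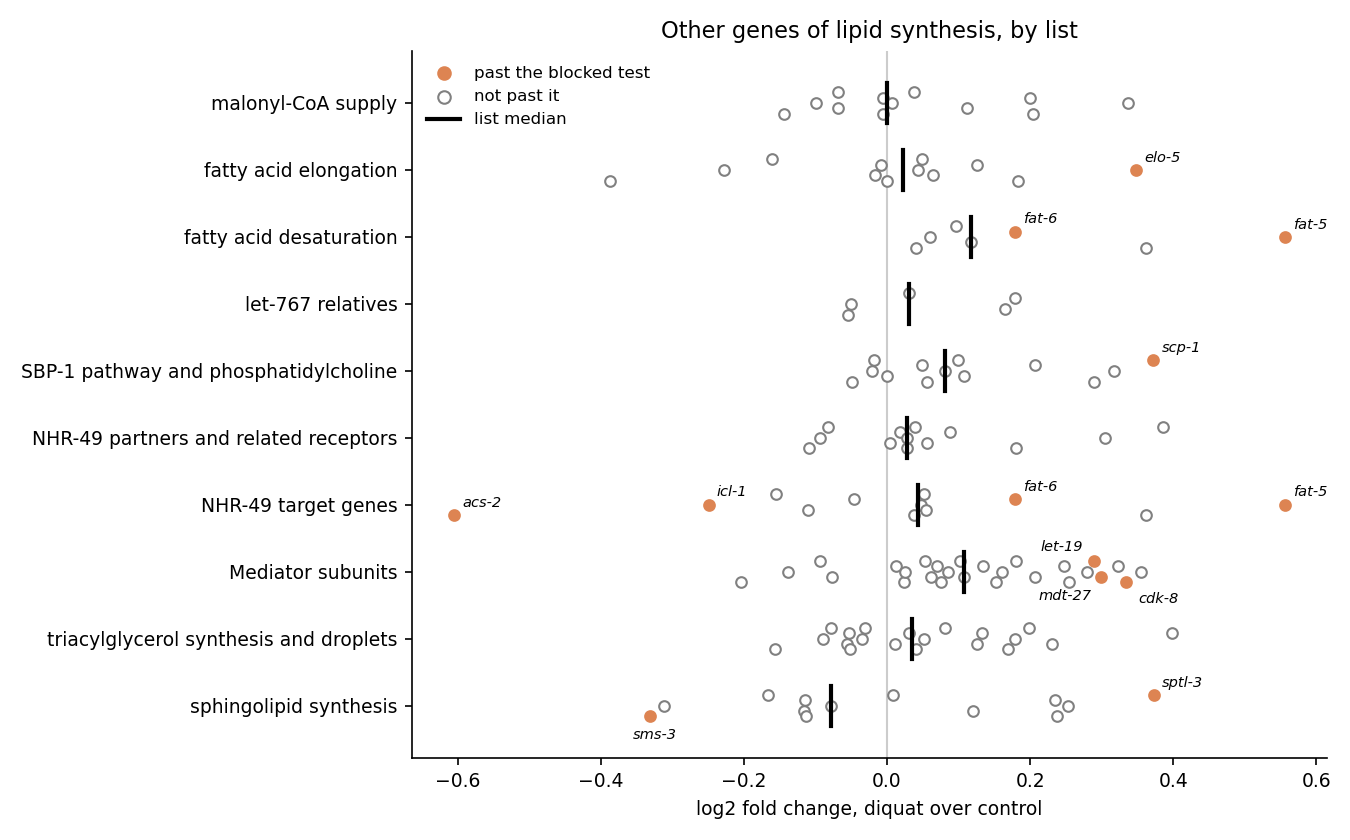
Log2 fold change without the block, diquat over control, of each tested gene in the 10 lists, with the list median (black bar) and the genes past the blocked edgeR test filled and named. The list medians lie between -0.08 (sphingolipid synthesis) and 0.12 (fatty acid desaturation), and acs-2 and fat-5 are the extremes at -0.61 and 0.56.

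The pathway annotation in the deposited table places pod-2 and fasn-1 in fatty acid biosynthesis, let-767 and art-1 in fatty acid elongation and in biosynthesis of unsaturated fatty acids, and all 4 enzymes in fatty acid metabolism. Of 72 tested genes of fatty acid metabolism 0 passed without the block. With it 3 rose (fat-5, elo-5 and fat-6) and 1 fell (acs-2), against 4.51% higher and 4.0% lower of all tested genes. The median log2 fold change was 0.02 for fatty acid metabolism, 0.03 for fatty acid biosynthesis, 0.03 for elongation and 0.05 for unsaturated fatty acids. In the authors' deposited table no member had an FDR below 0.998, where 0.00977% of 20473 genes had one under 0.05 and were higher and 0.752% lower, and the log2 fold change of their group means of FPKM was 0.19 for fasn-1, 0.17 for nhr-49, 0.09 for art-1, 0.08 for sbp-1, 0.08 for mdt-15, 0.03 for let-767 and -0.00 for pod-2.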

How the data were processed

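The build WBcel235 and the tools fastp 0.18.0, HISAT2, StringTie 1.3.1 and RSEM are named, without role or order, in the submitters' processing notes. The deposited table has a count and an FPKM for each gene and library, per the file headers. Its counts are whole numbers, and they were tested as deposited. As RSEM is among the tools and 94 values are 0 beside an FPKM above 0, they may be estimated counts that the authors rounded. The authors also deposited their group mean FPKM, log2 fold change, p-value and FDR. Their test is not named in the sources used here.

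All other values come from the deposited counts. edgeR 4.0.16 in R 4.3.3 fitted group alone to all 6 libraries (TMM, filterByExpr, robust quasi-likelihood), with Benjamini-Hochberg adjustment over all tested genes, from which the members were read. A standard error is the size of the fold change over the root of F. Ratios of same-numbered libraries used a pseudocount of 0.1 CPM. Positions and exon lengths are those of Ensembl release 115 on WBcel235. Libraries of a group differed by more than sampling noise (chi-square per degree of freedom at least 15.5).

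The labels number the libraries alike in both groups, and for this reason numbers were treated as pairs in a blocked fit. After removal of the group means, libraries with the same number correlated across genes at 0.155, 0.200 and 0.459. diquat 2 correlated with control 1 at 0.208, slightly above its own number, and diquat 1 with control 2 at 0.0881. Numbers 1 and 2 were thus not clearly told apart. These correlations come from the same data as the blocked fit and are no independent evidence of pairing. The alternatives were RLE scaling, no filter, DESeq2 1.42.0, limma-voom 3.58.1, each library's length trend removed by loess (span 0.5), and omission of single libraries or pairs. The scripts were tested on simulated data.

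The members and lists were chosen with earlier results of these data known. The rule named the 8 members, up to 4 genes of a list past either fit with a mean of at least 20 counts, 14 set genes whatever their result, and the 2 nearest in pattern to each member. Other genes were named after their values were seen. A symbol that an assembled locus also carries was read from its WormBase row.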

Additional observations from a re-analysis of the deposited data

How the results depend on the processing

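With RLE scaling, no filter, DESeq2, limma-voom, the replicate block, the length trend removed, or any library or pair left out, 0 members were called. Block and length correction together called 1, pod-2, as lower. Several fold changes changed sign. The highest of the members, that of fasn-1 at 0.15, was -0.0089 without the length trend and 0.0019 with the block added. Without the length trend the value was -0.055 for sbp-1, -0.076 for mdt-15, 0.0097 for let-767, -0.034 for nhr-66 and 0.048 for hpo-8. With the block added it was -0.061 for sbp-1, -0.074 for mdt-15, 0.010 for let-767, -0.036 for nhr-66 and 0.048 for hpo-8. DESeq2 put let-767 at 0.0016. The length correction takes the trend out by construction; the cause of the DESeq2 shift was not tested.

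Leaving out single libraries, or pairs in the blocked fit, gave log2 fold changes of -0.072 to 0.15 for sbp-1, -0.015 to 0.11 for mdt-15, -0.19 to 0.089 for pod-2, -0.084 to 0.053 for let-767, -0.034 to 0.10 for art-1, -0.0057 to 0.55 for cdk-8, -0.058 to 0.25 for nhr-13, -0.060 to 0.29 for elo-6, -0.086 to 0.049 for hpo-8, -0.21 to 0.030 for acly-1, -0.076 to 0.065 for pmt-1 and -0.27 to 0.094 for dgat-2. nhr-49 was between 0.082 and 0.17 and fasn-1 between 0.11 and 0.19. Among genes past the blocked test, values without the block moved by over 1.5 times for elo-5 (0.35; 0.15 without diquat 3), scp-1 (0.37; 0.19 without diquat 3, 0.24 without control 1, 0.68 without control 3), icl-1 (-0.25; -0.14 without control 2), fat-6 (0.18; 0.098 without control 3), let-19 (0.29; 0.10 without diquat 3, 0.16 without control 1, 0.54 without control 3), mdt-27 (0.30; 0.18 without diquat 3, 0.46 without control 3) and cdk-8 (0.33; -0.0057 without diquat 3, 0.55 without control 3).

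Over all genes, 2 were called higher without the filter, 2 with DESeq2 and 1 with the length trend removed. The replicate block called 598 higher and 530 lower, and with length correction 449 and 830. Omissions gave 0 to 436 higher and 27 to 482 lower; the lowest count of lower genes, 27, came without diquat 1, with 38 without control 2 and 71 without control 1. The blocked fit called 15 higher and 181 lower without pair 1. In the lists, the block called higher 2 desaturation, 2 NHR-49 target, 3 Mediator, 1 elongation, 1 SBP-1 pathway and 1 sphingolipid genes, and lower 2 NHR-49 target genes and 1 sphingolipid gene. With length correction added it called higher 3 desaturation, 3 NHR-49 target, 2 SBP-1 pathway, 1 Mediator, 1 elongation and 1 sphingolipid genes, and lower 2 malonyl-CoA supply, 2 NHR-49 target, 2 sphingolipid, 1 SBP-1 pathway and 1 Mediator genes. Of the 129 listed genes tested, the block called 8 higher and 3 lower, against 4.51% and 4.0% of all tested genes. With length correction it called 8 higher and 8 lower, against 3.39% and 6.26%. The desaturases fat-5, fat-6 and fat-7 are also NHR-49 targets here, so the counts of higher genes by list add to more than these. Omissions gave 0 to 3 Mediator genes higher, 0 to 2 desaturation genes higher, 0 to 2 NHR-49 target genes in each direction, and 0 to 1 higher for elongation, SBP-1 pathway, malonyl-CoA supply and sphingolipid genes. By counts per kilobase 5 members kept their place in the order of levels in diquat libraries. Nothing can be said of nhr-80 at this depth.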
